A study of Mus musculus with 16 samples.

Results

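Malat1, Neat1, Firre, Dnm3os, Kcnq1ot1, Meg3, Rian and Mirg are long noncoding RNAs that act mainly in or near the nucleus, and they were followed here in every library of a mouse preadipocyte RNA-seq series. They are 8 of the 41325 genes in the count tables, and were chosen by their raw counts, which varied between libraries of the same group, with their lower counts after IL-13 already known. The cells were immortalized preadipocytes, fat cell precursors from wild-type C57Bl6/J mice that form adipocytes once differentiation is induced in culture. The 16 libraries fell into 4 groups of 4, namely cells given the type 2 cytokine IL-13 for 16 h beforehand and taken at day 6 of differentiation, untreated cells at day 6, IL-13 pre-treated cells at day 0, and untreated cells at day 0. All groups share the strain, the genotype and the immortalization, and the labels leave unsaid whether libraries of 1 group are separate cultures. P-values therefore measure only how far these libraries spread, and that spread may be technical. Day 0 and day 6 were deposited in separate tables, so a difference between the tables and a difference between the days cannot be told apart.

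Malat1 is an abundant RNA of nuclear speckles, the bodies that store splicing factors, and Neat1 is the scaffold of paraspeckles, which form next to them. The genes of both RNAs lie side by side on chromosome 19. Firre is an X-linked RNA that binds the nuclear matrix protein Hnrnpu, helps to organise chromosomes in the nucleus and has been linked to adipogenesis in mouse cells. Dnm3os is transcribed from the opposite strand inside the dynamin gene Dnm3 and is the precursor of the microRNAs miR-199a and miR-214. Kcnq1ot1 is the antisense RNA of an imprinted domain, made from the paternal chromosome, where it silences neighbouring genes. Meg3, Rian and Mirg are made from the maternal chromosome in the imprinted Dlk1-Dio3 domain, and Rian and Mirg are hosts of small nucleolar RNAs and microRNAs. The libraries were made with a stranded mRNA kit from 2 ug of total RNA, which selects RNAs with a poly(A) tail. The mature 3′ end of Malat1 and that of the long Neat1 form lack such a tail, so their counts here are of the part of these RNAs that was captured.

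Dnm3os gives rise to microRNAs whose mature sequences are printed, from RefSeq on GRCm38.p6, because they are what the RNA is best known for. The capitals mark the seed, bases 2 to 8.
mmu-miR-199a-5p: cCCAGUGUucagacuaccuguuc
mmu-miR-199a-3p: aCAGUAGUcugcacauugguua
mmu-miR-214-5p: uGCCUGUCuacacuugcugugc
mmu-miR-214-3p: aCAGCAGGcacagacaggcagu
The 4 seeds differ from each other. The first pair lies at chr1:162217844-162217866 and chr1:162217883-162217904, and the second at chr1:162223397-162223418 and chr1:162223438-162223459, all on the plus strand inside the single annotated Dnm3os exon. No read was counted for either microRNA hairpin in any of the 16 libraries. Both hairpins lie on the same strand inside the Dnm3os exon, and the labels do not state how reads over both were assigned. A kit for long RNAs is also not made to capture mature microRNAs, so the zeros say nothing on microRNA levels.

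Promoters are printed for 4 of the 5 RNAs with enough counts to compare, because these RNAs moved together between libraries. RefSeq entries were found for 7 of the 8 genes. Each sequence runs from 250 bases before the start site to 50 after it, on the gene's own strand in GRCm38.p6, and capitals mark matches to a searched motif.
Malat1, chr19:5802623-5802922, minus strand: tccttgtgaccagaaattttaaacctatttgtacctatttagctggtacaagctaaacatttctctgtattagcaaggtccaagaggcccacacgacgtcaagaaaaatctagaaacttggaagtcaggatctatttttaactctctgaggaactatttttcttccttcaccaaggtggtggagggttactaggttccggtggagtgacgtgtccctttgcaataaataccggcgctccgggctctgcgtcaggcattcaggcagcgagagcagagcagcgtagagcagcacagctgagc
Firre, chrX:50635272-50635571, minus strand: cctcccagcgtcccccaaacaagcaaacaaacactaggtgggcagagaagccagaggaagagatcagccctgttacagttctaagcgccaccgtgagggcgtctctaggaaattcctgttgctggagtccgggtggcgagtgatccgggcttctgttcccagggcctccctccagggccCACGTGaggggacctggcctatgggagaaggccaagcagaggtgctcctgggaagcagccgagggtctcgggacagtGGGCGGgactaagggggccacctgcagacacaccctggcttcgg
Dnm3os, chr1:162217373-162217672, plus strand: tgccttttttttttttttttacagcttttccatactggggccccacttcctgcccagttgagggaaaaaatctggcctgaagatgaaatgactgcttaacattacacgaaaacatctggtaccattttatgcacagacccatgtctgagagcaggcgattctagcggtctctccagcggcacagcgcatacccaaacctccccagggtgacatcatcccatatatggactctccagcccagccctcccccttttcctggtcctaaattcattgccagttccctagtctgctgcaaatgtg
Kcnq1ot1, chr7:143296498-143296797, minus strand: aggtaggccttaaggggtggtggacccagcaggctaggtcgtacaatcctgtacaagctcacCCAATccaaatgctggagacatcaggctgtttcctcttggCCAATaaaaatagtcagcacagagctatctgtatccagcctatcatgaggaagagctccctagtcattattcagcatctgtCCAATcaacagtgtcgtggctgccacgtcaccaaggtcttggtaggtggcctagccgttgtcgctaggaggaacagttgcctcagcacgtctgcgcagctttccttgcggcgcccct
The motifs, searched on both strands, were the E-box CACGTG, the GC box GGGCGG, the CCAAT box, the TATA box TATAAA, the AP-1 site TGANTCA, the cyclic AMP response element by its 8-letter palindrome, and a STAT-type site of TTC and GAA parted by 3 or 4 bases. Kcnq1ot1 held 3 CCAAT boxes, a motif present in 37.4% of the 32851 mouse promoters of the same length. Firre held 1 E-box, at position -71 from the start site, and 1 GC box, at position 7, which occur in 7.15% and 35.7% of promoters. No searched motif was found in the Malat1 and Dnm3os windows. No motif was thus present in all 4. GC content was 47.0% for Malat1, 62.7% for Firre, 48.7% for Dnm3os and 53.3% for Kcnq1ot1, against a median of 52.7% over all promoters.

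The 8 RNAs covered a wide range of abundance, and 3 of them were barely detected. Per transcript length, in the deposited TPM averaged over all 16 libraries, Malat1 had 78.7 TPM, Neat1 10.7, Dnm3os 5.84, Firre 2.69 and Kcnq1ot1 0.121. Malat1 lay above 90.5% of the detected genes by this measure and Kcnq1ot1 above 26.8%. Kcnq1ot1 (ENSMUSG00000101609, chr7:143203458-143296549, minus strand) is annotated as 1 exon of 93092 bases, so its TPM is low for its 914 counts in all. Malat1 (ENSMUSG00000092341, chr19:5795690-5802672), Neat1 (ENSMUSG00000092274, chr19:5824708-5845478) and Dnm3os (ENSMUSG00000078190, chr1:162217623-162225550) are also each covered by 1 block of exon sequence. Firre (ENSMUSG00000085396, chrX:50555744-50635321) is the spliced exception among the 5, with 27 blocks of exon sequence over 79578 bases.

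The Dlk1-Dio3 RNAs were near the detection limit. Over all 16 libraries Meg3 (ENSMUSG00000021268, chr12:109541001-109571726) had 8 counts, Rian (ENSMUSG00000097451, chr12:109603940-109661716) had 29 and Mirg (ENSMUSG00000097391, chr12:109729764-109749460) had 7. Meg3 was at 0 in 11 libraries, Rian in 4 and Mirg in 12. Rian had 0 counts in all 4 IL-13 libraries of day 6, 1 count in each untreated library of day 6, 1, 1, 3 and 1 counts in the IL-13 libraries of day 0, and 11, 2, 2 and 4 in the untreated libraries of day 0. Its highest library was thus untreated library 1 of day 0. These 3 RNAs passed the filter on low counts in no comparison, so no fold change is given for them. Dlk1, the paternally expressed protein of the same domain and an inhibitor of adipogenesis, was measured well at day 0, at 26.9 ± 2.92 CPM (counts scaled to library size) in IL-13 cells and 25.95 ± 3.62 CPM in untreated cells (SD, n = 4 each). It fell to 1.48 ± 0.243 CPM in untreated cells at day 6, with a log2 fold change against day 0 of -4.12 (SE 0.16, edgeR adjusted p = 9.84e-16).

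Malat1, Neat1, Firre, Dnm3os and Kcnq1ot1 passed the filter, and their counts differed widely between libraries of the same group. Malat1 had 2856, 1764, 1106 and 1564 counts in IL-13 libraries 1 to 4 of day 6, against 7215, 7317, 3196 and 3950 in the untreated libraries of day 6. At day 0 it had 863, 698, 508 and 848 counts in the IL-13 libraries, against 4842, 2744, 1423 and 3594 in the untreated libraries. Library 3 was the lowest in each of the 4 groups, and IL-13 and untreated libraries of the same day did not overlap. Neat1 had 701, 493, 293 and 498 counts in IL-13 libraries of day 6, against 3674, 3171, 1362 and 2005 in untreated libraries of day 6. At day 0 it had 251, 218, 176 and 247 counts in IL-13 libraries, against 1944, 888, 530 and 1551 in untreated libraries. As for Malat1, library 3 was the lowest of every group and the treatment groups did not overlap. How many of all genes share either trait was not counted.

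Firre had 60, 38, 22 and 67 counts in IL-13 libraries of day 6, against 464, 369, 157 and 228 in untreated libraries of day 6. At day 0 it had 13, 13, 6 and 11 counts in IL-13 libraries, against 153, 44, 28 and 119 in untreated libraries. The untreated libraries of day 0 fell into a high pair, libraries 1 and 4, and a low pair, libraries 2 and 3. Dnm3os had 62, 37, 12 and 63 counts in IL-13 libraries of day 6, against 209, 200, 124 and 160 in untreated libraries of day 6. At day 0 it had 92, 91, 60 and 100 counts in IL-13 libraries, against 963, 530, 278 and 685 in untreated libraries. Library 3 was again the lowest of each group, with only 12 counts in the IL-13 group of day 6. Kcnq1ot1 had 77, 43, 33 and 49 counts in IL-13 libraries of day 6, against 192, 145, 78 and 88 in untreated libraries of day 6. At day 0 it had 12, 13, 12 and 4 counts in IL-13 libraries, against 57, 36, 24 and 51 in untreated libraries. With so few counts in the IL-13 group of day 0, counting error is a large part of its spread there.

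**Figure D1:**
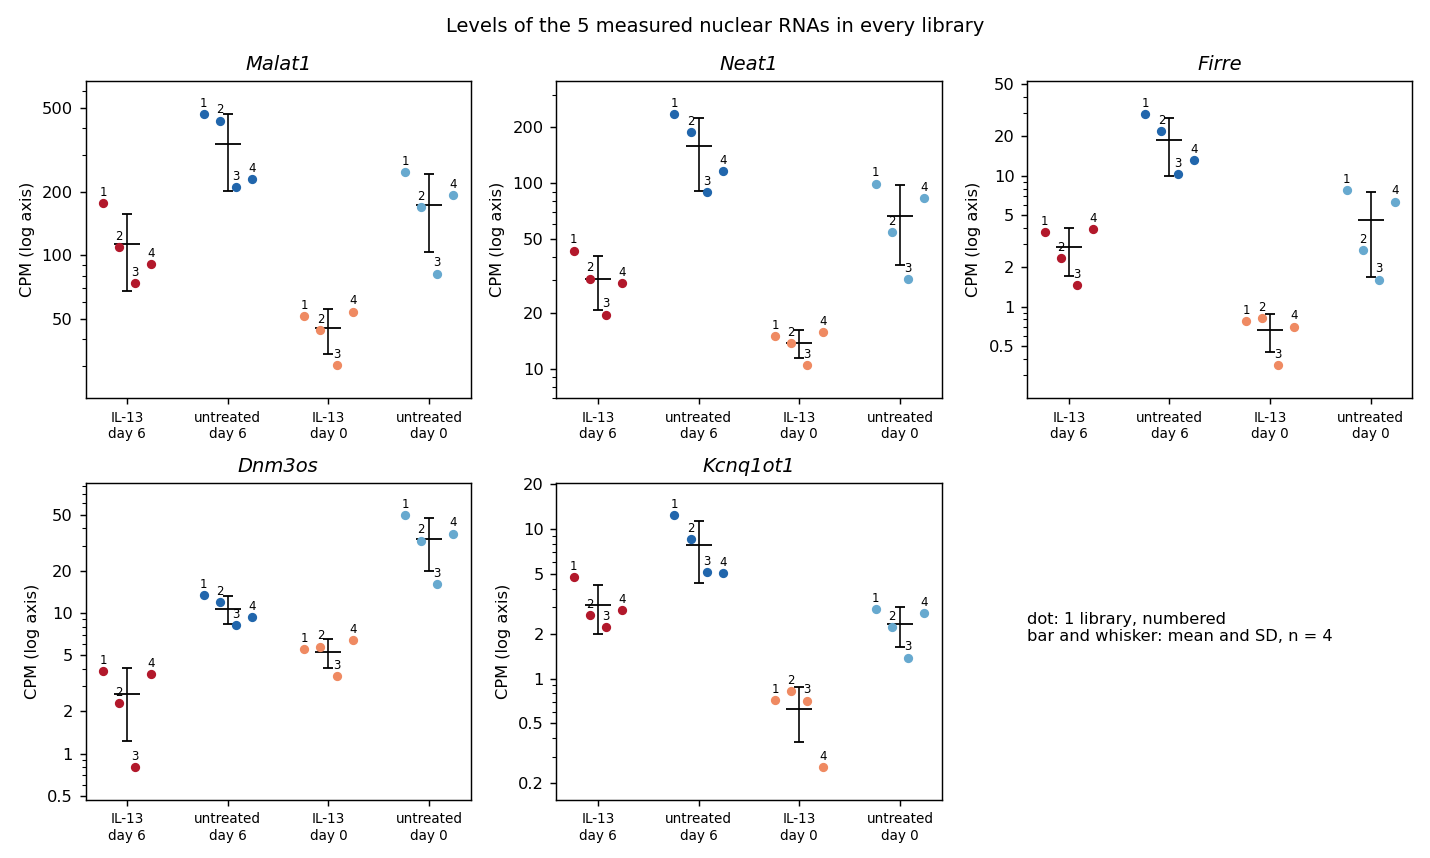
Levels of Malat1, Neat1, Firre, Dnm3os and Kcnq1ot1 in CPM on log axes, with IL-13 and untreated libraries of day 6 on the left and those of day 0 on the right of each panel. Each dot is a library with its number, and the bar and whiskers are the mean and SD of n = 4. Untreated libraries lie above IL-13 libraries of the same day in all 5 panels, and Dnm3os alone of the 5 has its highest group at day 0.

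The spread within groups, which is what the RNAs were chosen for, is given as a description. In untreated cells of day 0 the coefficient of variation of CPM was 40.0% for Malat1, 45.6% for Neat1, 63.7% for Firre, 40.8% for Dnm3os and 29.7% for Kcnq1ot1. In untreated cells of day 6 Dnm3os had the lowest value of the 5, at 22.5%, and Firre the highest, at 46.9%. In IL-13 cells of day 0 it was 24.0% for Malat1, 17.1% for Neat1, 31.9% for Firre, 23.0% for Dnm3os and 40.3% for Kcnq1ot1. The biological coefficient of variation that edgeR estimated over all 16 libraries was 0.370 for Malat1, 0.369 for Neat1, 0.468 for Firre, 0.372 for Dnm3os and 0.299 for Kcnq1ot1, against a median of 0.0804 over the genes tested. Between 98.0% and 99.1% of genes tested had a lower value than these RNAs.

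The same libraries were high or low in CPM for most of the 5 RNAs. Library 3 was the lowest for 5 of 5 RNAs in IL-13 cells of day 6, for 4 of 5 in untreated cells of day 6, for 4 of 5 in IL-13 cells of day 0 and for 5 of 5 in untreated cells of day 0. Library 1 had the highest CPM for 4 of 5 RNAs in IL-13 cells of day 6 and for 5 of 5 in the untreated cells of both days. In IL-13 cells of day 0 library 4 had the highest CPM for 3 RNAs and library 2 for the other 2. In raw counts, which are not scaled to library size, a few of these ranks differ, as for Malat1 in untreated cells of day 6, where library 2 had 7317 counts and library 1 had 7215. With group means subtracted, log2 CPM correlated across the 16 libraries at r = 0.96 between Malat1 and Neat1, 0.94 between Neat1 and Firre and 0.53 between Dnm3os and Kcnq1ot1, with a median of 0.81 over the 10 pairs. These points share libraries and their scaling, and the ranks and correlations are a description. How many of all genes had library 3 lowest or library 1 highest was not counted, nor was r taken over pairs of other genes.

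**Figure D2:**
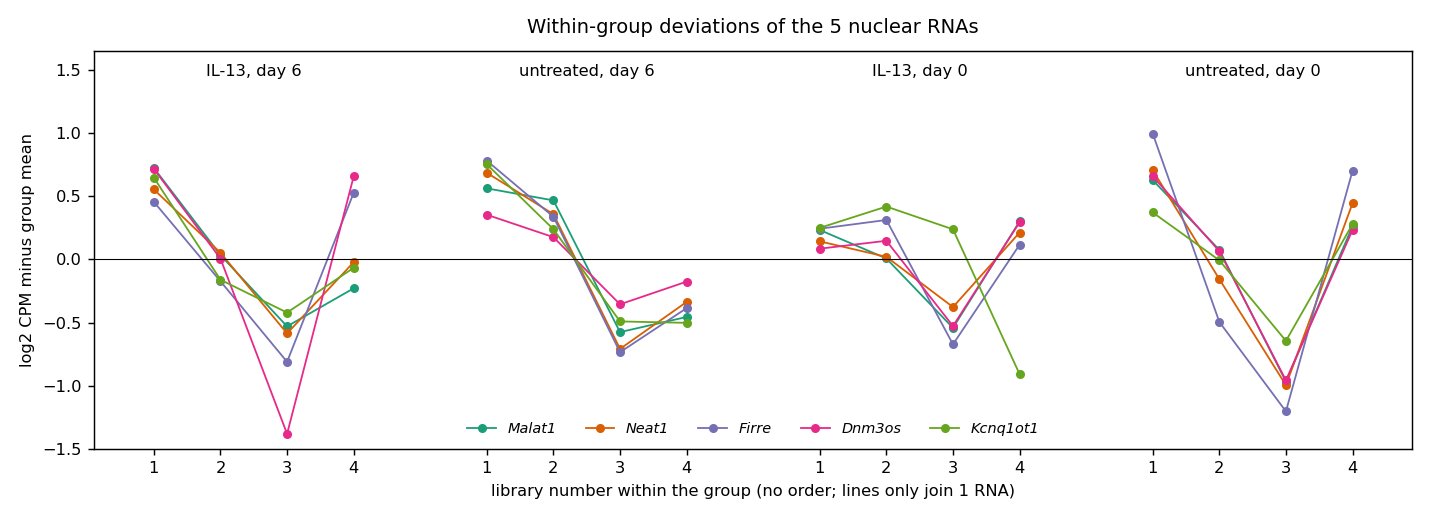
Log2 CPM of the 5 RNAs in each library after subtraction of the group mean, in the order IL-13 day 6, untreated day 6, IL-13 day 0 and untreated day 0; lines only join the values of 1 RNA. The 5 lines run close together in both untreated groups, with library 1 above and library 3 below the mean, and they part in the IL-13 group of day 0, where Kcnq1ot1 had 4 counts in library 4.

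Many other transcripts shared this pattern. Of 11107 other genes whose log2 CPM averaged 1 or more, the 10 most like the mean of the 5 RNAs, by Pearson r of group-centred log2 CPM over 16 libraries, were Mdm4 (0.98), Uvssa (0.98), Nktr (0.98), Clk1 (0.96), Prpf39 (0.96), Ccnl2 (0.96), Ints6l (0.95), Ccp110 (0.95), Ttll4 (0.95) and Tmem245 (0.95). The median over the candidates was -0.02 and their 95th percentile was 0.79. Nktr, Clk1 and Ccnl2 encode a splicing-related cyclophilin, a kinase of SR splicing factors and a cyclin of nuclear speckles, and Prpf39 a part of the U1 snRNP. Mdm4 encodes a regulator of p53. For single RNAs, the 3 most like Malat1 were Relch, Ercc6 and Ccnt2, and those most like Neat1 were Ccnl2, Uvssa and Khdc4. Nktr, Ccnl2 and Ankrd11 were most like Firre, Mysm1, Adam9 and Acap2 most like Dnm3os, and Tubgcp6, Mb21d1 and Setdb2 most like Kcnq1ot1. A gene's likeness within groups did not fix its change between days: Mdm4 had a log2 fold change of 0.97 between day 6 and day 0 in untreated cells (edgeR adjusted p = 0.000224), while Nktr had 0.05 (edgeR adjusted p = 0.814).

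The deposited values hold a second measure of each library that the gene counts do not. The library size implied by the authors' RPKM values was larger than the sum of the gene counts, and the difference, taken as a percentage of the implied size, is the share of reads outside the gene counts. The sources used here do not say what those reads are. The share averaged 4.36 ± 0.187% in IL-13 libraries and 5.77 ± 1.02% in untreated libraries of day 6, and 4.12 ± 0.396% in IL-13 libraries and 5.35 ± 0.817% in untreated libraries of day 0 (SD, n = 4 each). By two-sided exact permutation test the difference between IL-13 and untreated libraries had p = 0.0286 at day 6, the smallest that 70 permutations can give, and p = 0.0857 at day 0; adjusted over 4 comparisons the values were 0.114 and 0.171. Between day 6 and day 0 it had exact p = 0.314 in IL-13 and 0.486 in untreated cells. In both untreated groups library 1 had the highest and library 3 the lowest share, the order also seen for Malat1 and Neat1, with 6.94% and 4.85% at day 6 and 6.15% and 4.21% at day 0. In the IL-13 groups the lowest shares were those of library 2 at day 6 and library 4 at day 0, which were not the libraries lowest in Malat1. The 8 RNAs together took 0.0145 ± 0.00564% of the gene counts in IL-13 libraries and 0.0532 ± 0.0220% in untreated libraries of day 6, and 0.00644 ± 0.00152% in IL-13 libraries and 0.0304 ± 0.0132% in untreated libraries of day 0. The part of the uncounted reads in the results on these RNAs was not tested.

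**Figure D3:**
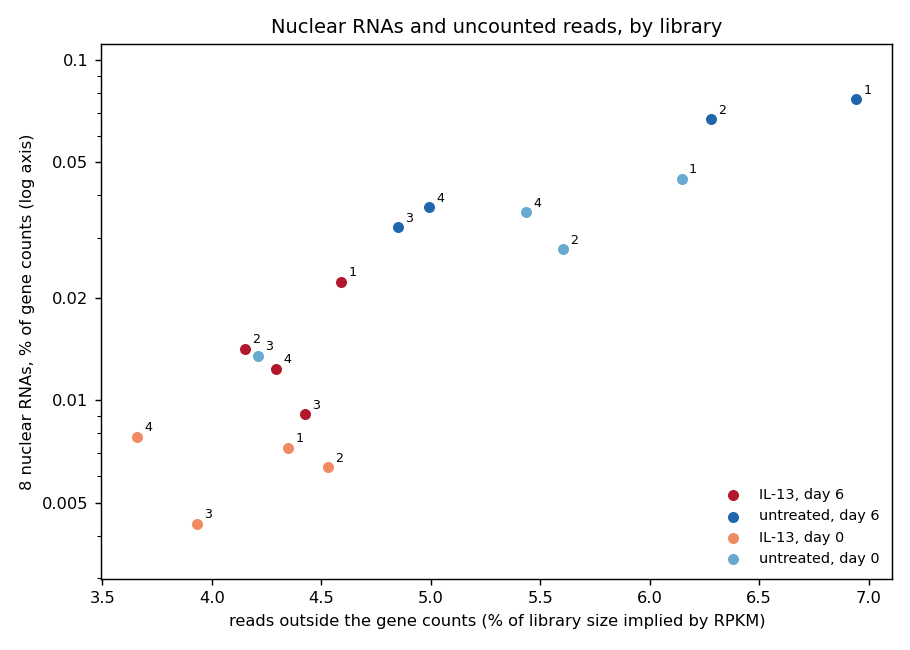
Share of reads outside the gene counts (x axis, % of the library size implied by RPKM) against the share of gene counts taken by the 8 RNAs (y axis, %, log axis), 1 dot per library with its number. Untreated library 1 of day 6 is highest on both axes, at 6.94% and 0.0767%, and IL-13 library 3 of day 0 is lowest on the y axis, at 0.00434%.

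Over 6 days of differentiation Malat1, Neat1, Firre and Kcnq1ot1 rose in untreated and in IL-13 pre-treated cells, and Dnm3os fell in untreated cells. In untreated cells all 5 tested RNAs of the 8 were called, 4 of them higher and 1 lower. That share is to be read against the background, since edgeR called 80.5% of all 13157 genes tested in that comparison, and a count of this size is therefore not a result about these RNAs. The size of the change was moderate among all genes: its absolute log2 value lay above that of 59.4% of genes for Malat1 and of 81.4% for Firre. Adipocyte markers summed to 29054 to 31265 CPM in IL-13 and 27670 to 29752 CPM in untreated libraries of day 6. At day 0 they summed to 506 to 528 CPM in IL-13 and 524 to 564 CPM in untreated libraries. Preadipocyte markers summed to 548 to 632 CPM in IL-13 and 567 to 672 CPM in untreated libraries of day 6. At day 0 their sums were 1408 to 1464 CPM and 1338 to 1433 CPM. Of 10 preadipocyte markers tested in untreated cells, 6 fell and 2 rose, against 39.0% and 41.5% of all genes. In IL-13 cells 8 fell and 2 rose, against 40.3% and 40.6%. Muscle markers summed to 18.4 to 27.3 CPM in all day 6 libraries and to 176 to 227 CPM in those of day 0. Cnn1 made up most of the day 0 sums, at 181 CPM in IL-13 and 183 CPM in untreated cells, against 0.354 and 0.436 CPM at day 6. Des rose, from 2.95 to 18.4 CPM in IL-13 cells and from 3.22 to 13.5 CPM in untreated cells. Of 4 muscle markers tested, 3 fell and 1 rose in untreated cells, and 2 fell and 1 rose in IL-13 cells. Macrophage markers summed to 1.42 to 8.60 CPM and endothelial markers to 0.754 to 4.06 CPM in all libraries, with 3 of 10 and 1 of 7 at 0 throughout. In bulk RNA, fewer cells with an RNA and less of it per cell cannot be told apart.

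Firre and Kcnq1ot1 had the larger increases in untreated cells. Firre averaged 18.8 ± 8.84 CPM at day 6 and 4.63 ± 2.95 CPM at day 0, a log2 fold change of 2.00 (SE 0.43, edgeR adjusted p = 0.000702). Kcnq1ot1 averaged 7.80 ± 3.45 CPM at day 6 and 2.31 ± 0.687 CPM at day 0, a log2 fold change of 1.74 (SE 0.31, edgeR adjusted p = 4.92e-05). All 4 day 6 libraries of either RNA lay above all 4 of day 0. How many of all genes separated by day in this way was not counted. Neat1 averaged 157.7 ± 66.97 CPM at day 6 and 66.9 ± 30.5 CPM at day 0, a log2 fold change of 1.23 (SE 0.37, edgeR adjusted p = 0.00808), and its groups overlapped. The Neat1 call was lost when only the 8 untreated libraries were fitted (edgeR adjusted p = 0.0505). Malat1 averaged 334.6 ± 133.2 CPM at day 6 and 172.8 ± 69.0 CPM at day 0, also with overlap, a log2 fold change of 0.95 (SE 0.38, edgeR adjusted p = 0.0342). The Malat1 call was lost without untreated library 1 or 2 of day 6 (adjusted p = 0.113 and 0.0998) and without untreated library 2, 3 or 4 of day 0 (0.0726, 0.0851 and 0.0506), while the log2 fold change stayed between 0.72 and 1.16 over all single libraries left out.

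Dnm3os went the other way. It averaged 10.7 ± 2.40 CPM at day 6 and 33.6 ± 13.7 CPM at day 0 in untreated cells, and all 4 day 6 libraries lay below all 4 of day 0. Its log2 fold change was -1.66 (SE 0.33, edgeR adjusted p = 0.000362). Dnm3, the dynamin gene in which Dnm3os lies on the opposite strand, fell to 1.96 ± 0.367 CPM at day 6, against 5.01 ± 0.601 CPM at day 0 (log2 fold change -1.34, SE 0.17, edgeR adjusted p = 5.07e-07). The annotated exons of the 2 genes share no base. Twist2, a mesenchymal transcription factor, fell to 15.2 ± 0.833 CPM, against 34.7 ± 3.88 CPM at day 0 (log2 fold change -1.19, SE 0.10, edgeR adjusted p = 3.68e-10). Of the 6 listed genes around or related to Dnm3os, 5 fell and 1 rose in untreated cells, and the same counts were found in IL-13 cells, in comparisons that called 80.5% and 80.8% of all genes. Pigc, a neighbour of Dnm3 that makes a part of the glycolipid anchor pathway, was the one that rose, at 30.3 ± 0.741 CPM at day 6 and 19.6 ± 0.822 CPM at day 0.

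In IL-13 pre-treated cells 4 of the 5 tested RNAs were called between day 6 and day 0, all higher, against a background of 80.8% of the genes tested, so that this count too is not a result about these RNAs. Kcnq1ot1 averaged 3.12 ± 1.13 CPM at day 6 and 0.627 ± 0.253 CPM at day 0, a log2 fold change of 2.30 (SE 0.43, edgeR adjusted p = 8.45e-05). Firre averaged 2.86 ± 1.15 CPM at day 6 and 0.665 ± 0.212 CPM at day 0, a log2 fold change of 2.11 (SE 0.73, edgeR adjusted p = 0.0164). Malat1 averaged 112.8 ± 44.9 CPM at day 6 and 45.0 ± 10.8 CPM at day 0, a log2 fold change of 1.33 (SE 0.40, edgeR adjusted p = 0.00829). Neat1 averaged 30.6 ± 9.76 CPM at day 6 and 13.8 ± 2.36 CPM at day 0, a log2 fold change of 1.16 (SE 0.44, edgeR adjusted p = 0.0263). For these 4 RNAs the day 6 and day 0 libraries did not overlap, and the share of all genes without overlap was not counted here either. The Neat1 call was lost without IL-13 library 1 of day 6 (adjusted p = 0.0785) or IL-13 library 3 of day 0 (0.0617).

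Dnm3os averaged 2.65 ± 1.41 CPM at day 6 and 5.30 ± 1.22 CPM at day 0 in IL-13 cells, with overlapping groups. Its log2 fold change of -0.98 (SE 0.46) did not pass the test (edgeR adjusted p = 0.0636). The value passed with DESeq2 (adjusted p = 0.0276) and without IL-13 library 3 of day 0 (edgeR adjusted p = 0.0470). Whether the change over the days differed between IL-13 and untreated cells was not tested for any of the 5 RNAs.

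**Figure D4:**
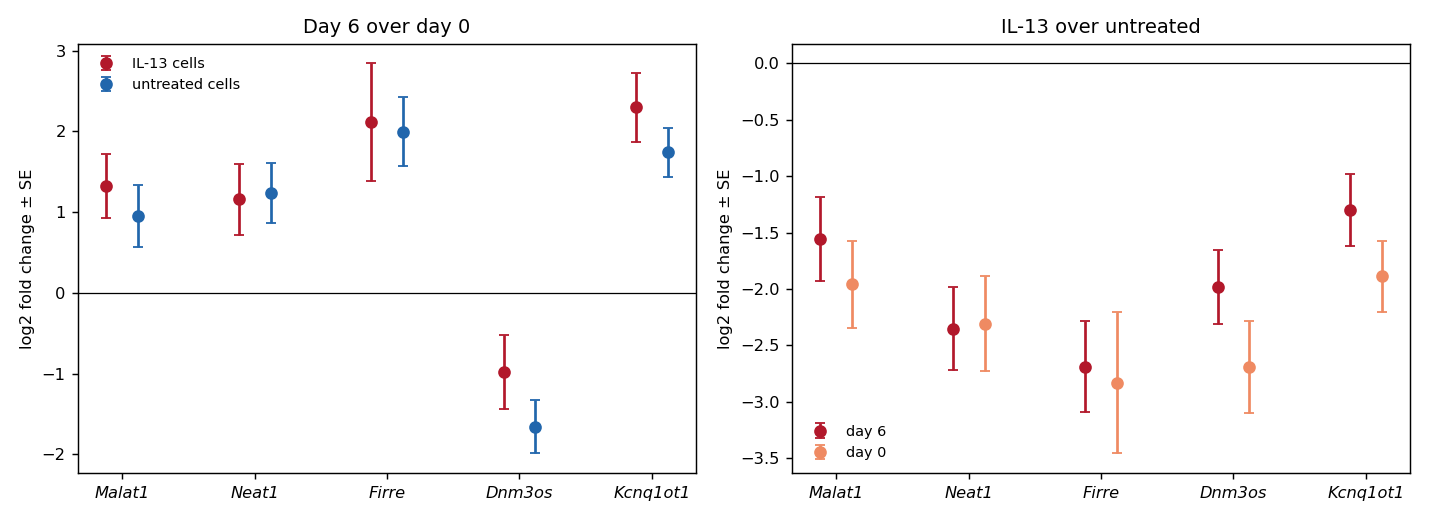
Log2 fold changes with SE of the 5 RNAs between day 6 and day 0 (left panel; IL-13 cells left of untreated cells) and between IL-13 and untreated cells (right panel; day 6 left of day 0). Dnm3os is the only one of the 5 below 0 in the left panel, and all 10 values in the right panel lie between -2.83 and -1.30.

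Taken against Malat1 in the same library, which needs no scaling between libraries, Dnm3os, Firre and Kcnq1ot1 separated by day and Neat1 did not. Malat1 itself rose between the days, with log2 fold changes of 0.95 in untreated and 1.33 in IL-13 cells. Each ratio therefore combines the change of Malat1 with that of the other RNA. Dnm3os had 3.39 ± 0.671 counts per 100 Malat1 counts in untreated cells of day 6 and 19.4 ± 0.351 in those of day 0 (exact permutation p = 0.0286, the smallest that 70 permutations can give; 0.0381 adjusted over 8 comparisons). In the 4 untreated libraries of day 0 this ratio ran from 19.1 to 19.9, while the Malat1 level itself varied 3.03-fold between them. In IL-13 cells Dnm3os had 2.35 ± 1.23 counts per 100 Malat1 counts at day 6 and 11.8 ± 0.971 at day 0, with the same exact permutation p. Dnm3os itself did not pass the test between the days in IL-13 cells (log2 fold change -0.98, edgeR adjusted p = 0.0636). Firre had 5.54 ± 0.704 per 100 Malat1 counts in untreated cells of day 6 and 2.51 ± 0.852 in those of day 0, and 2.63 ± 1.10 and 1.46 ± 0.299 in IL-13 cells of day 6 and day 0. Kcnq1ot1 had 2.33 ± 0.291 and 1.40 ± 0.216 in untreated cells of day 6 and day 0, and 2.81 ± 0.309 and 1.52 ± 0.805 in IL-13 cells of day 6 and day 0. In IL-13 cells of day 0 these ratios rest on 6 to 13 Firre and 4 to 13 Kcnq1ot1 counts in a library. The groups of the 2 days did not overlap for Dnm3os, Firre or Kcnq1ot1 in either treatment, each with the exact permutation p of 0.0286. How many other genes separate the days in their ratio to Malat1 was not counted. Of all genes tested, edgeR called 80.5% between the days in untreated cells and 80.8% in IL-13 cells. IL-13 library 4 of day 6 stood above the rest of its group for Firre, at 4.28 per 100 Malat1 counts, against 1.99 to 2.15 in the other 3. Neat1 had 46.9 ± 4.55 per 100 Malat1 counts in untreated cells of day 6 and 38.2 ± 4.60 in those of day 0 (exact permutation p = 0.0571), and 27.7 ± 3.09 and 31.0 ± 2.62 in IL-13 cells of day 6 and day 0 (exact permutation p = 0.171).

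**Figure D5:**
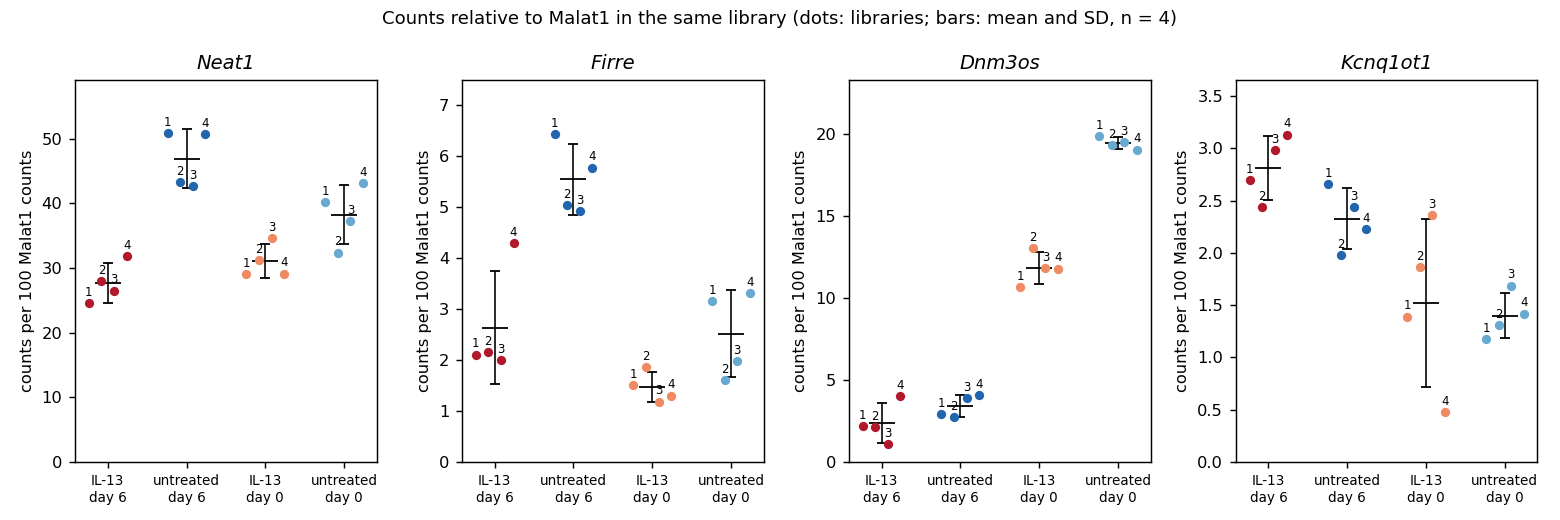
Counts of Neat1, Firre, Dnm3os and Kcnq1ot1 per 100 Malat1 counts in the same library, with IL-13 and untreated libraries of day 6 left of those of day 0; dots are numbered libraries, bars the mean and SD of n = 4. Dnm3os separates the days with no overlap and has its tightest group in untreated cells of day 0, from 19.1 to 19.9.

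All 5 RNAs were lower in IL-13 pre-treated than in untreated cells on both days, a pattern known when they were chosen and given here without a test. At day 6 Neat1 averaged 30.6 ± 9.76 CPM in IL-13 and 157.7 ± 66.97 CPM in untreated cells, 5.10-fold lower after IL-13, and Firre was 6.45-fold lower. Dnm3os was 3.95-fold, Malat1 2.95-fold and Kcnq1ot1 2.47-fold lower at day 6. At day 0 Firre averaged 0.665 ± 0.212 CPM in IL-13 and 4.63 ± 2.95 CPM in untreated cells, 7.12-fold lower after IL-13, and Dnm3os averaged 5.30 ± 1.22 CPM and 33.6 ± 13.7 CPM, 6.45-fold lower. Neat1 was 4.94-fold, Malat1 3.89-fold and Kcnq1ot1 3.70-fold lower at day 0. No IL-13 library reached the lowest untreated library of its day for any of the 5. The share of all genes whose libraries separate in this way was not counted. Of all genes tested, edgeR called 6.55% at day 6, with 2.21% higher and 4.34% lower, and 47.9% at day 0, with 23.7% higher and 24.2% lower, and nothing is read from the RNAs' own calls, since this contrast was known to the choice. The day 6 percentages rest on 809 genes called, a count that was 60 without untreated library 2, 62 without IL-13 library 2, 102 without untreated library 1, 205 without IL-13 library 3, 320 without IL-13 library 4, 523 without untreated library 3 and 2328 without IL-13 library 1. Among all called genes 33.7% were higher after IL-13 at day 6 and 49.5% at day 0, and with libraries scaled by total count alone these shares were 4.88% and 27.1%. That scaling shifted the median of all genes by -0.12 on the log2 scale at day 0 and by -0.10 in the day comparison of untreated cells. The 5 log2 fold changes between IL-13 and untreated cells of 1 day moved by less than their SE under every alternative that kept all libraries.

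The ratios to Malat1 after IL-13 differed between the days, again as a description. The share of other genes that separate by treatment in this ratio was not counted. Neat1 had 27.7 ± 3.09 counts per 100 Malat1 counts in IL-13 and 46.9 ± 4.55 in untreated cells of day 6, with no overlap, and 31.0 ± 2.62 in IL-13 and 38.2 ± 4.60 in untreated cells of day 0, with overlap. Firre had 2.63 ± 1.10 per 100 Malat1 counts in IL-13 and 5.54 ± 0.704 in untreated cells of day 6, with no overlap, and 1.46 ± 0.299 in IL-13 and 2.51 ± 0.852 in untreated cells of day 0, with overlap. Dnm3os overlapped at day 6, with 2.35 ± 1.23 per 100 Malat1 counts in IL-13 and 3.39 ± 0.671 in untreated cells, and did not at day 0, with 11.8 ± 0.971 in IL-13 and 19.4 ± 0.351 in untreated cells. Kcnq1ot1 overlapped on both days, with 2.81 ± 0.309 per 100 Malat1 counts in IL-13 and 2.33 ± 0.291 in untreated cells of day 6, and 1.52 ± 0.805 in IL-13 and 1.40 ± 0.216 in untreated cells of day 0.

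Transcripts of listed nuclear speckle proteins and splicing regulators were mostly lower after IL-13 as well. The list was chosen with earlier results of these data known, so its counts are a description. Of 27 listed genes, all tested, 18 fell and none rose at day 6, against 4.34% of all genes called lower, and 18 fell and none rose at day 0, against 24.2%. With total count scaling 22 fell at day 6 and 27 at day 0, and none rose. That scaling called 1032 of all 12352 genes lower and 53 higher at day 6. At day 0 it called 4523 of 12274 genes lower and 1682 higher. The count of 18 at day 6 depended on single libraries. It was 1 of 27 without IL-13 library 2, 2 without untreated library 2 and 7 without untreated library 1. Without IL-13 library 3 it was 7, and without IL-13 library 1 it was 24. The median stayed between -0.56 and -0.44 with any 1 library of day 6 left out, and none rose. At day 0 between 15 and 21 fell with any 1 library left out. The median log2 fold change of the list was -0.50 at day 6 and -0.28 at day 0, against 0.01 and -0.01 over all genes. Nktr, also named above for its likeness to the 5 RNAs in these libraries, had 65.5 ± 13.3 CPM in IL-13 and 128 ± 22.0 CPM in untreated cells of day 6 (log2 fold change -0.95, SE 0.15, edgeR adjusted p = 0.0138). Ddx17, an RNA helicase, had 262 ± 31.6 CPM in IL-13 and 410 ± 53.0 CPM in untreated cells of day 6 (-0.63, SE 0.10, edgeR adjusted p = 0.0103). Srsf5, an SR splicing factor, had 75.8 ± 2.00 CPM in IL-13 and 108 ± 16.6 CPM in untreated cells of day 0 (-0.53, SE 0.09, edgeR adjusted p = 0.000843). Son, a scaffold of speckles, had 300.02 ± 14.99 CPM in IL-13 and 361 ± 27.3 CPM in untreated cells of day 0 (-0.28, SE 0.06, edgeR adjusted p = 0.00228). Nktr, Ddx17, Srsf5 and Son were named as called genes of the list with the smallest p, so their p-values are no test of the list. These IL-13 and untreated libraries also differ in the levels of the 5 RNAs. Between the days the same list gave 6 higher and 11 lower in IL-13 cells and 11 higher and 4 lower in untreated cells. Of all genes, 40.6% were called higher and 40.3% lower in IL-13 cells, and 41.5% and 39.0% in untreated cells. Ccnl2 rose to 98.3 ± 31.3 CPM in untreated cells at day 6, against 29.2 ± 10.5 CPM at day 0 (log2 fold change 1.75, SE 0.28, edgeR adjusted p = 5.20e-05). Clk4, another kinase of SR proteins, rose to 16.8 ± 2.64 CPM in IL-13 cells at day 6, against 8.21 ± 0.352 CPM at day 0 (1.03, SE 0.21, edgeR adjusted p = 0.000206). Tra2a, of the same list, fell to 57.7 ± 6.40 CPM in IL-13 cells at day 6, against 89.2 ± 3.13 CPM at day 0 (-0.63, SE 0.08, edgeR adjusted p = 1.61e-07). Srsf3 and Acin1 also fell in IL-13 cells (-0.39 and -0.50, edgeR adjusted p = 7.05e-06 and 8.30e-06).

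Paraspeckle proteins, which bind Neat1, mostly fell over differentiation while Neat1 rose. Of 20 listed and tested, 12 fell and 5 rose in untreated cells, against 39.0% of all genes called lower and 41.5% called higher, and 13 fell and 3 rose in IL-13 cells, against 40.3% and 40.6%. Nono, a core paraspeckle protein, fell to 346 ± 9.18 CPM in untreated cells at day 6, against 536 ± 26.7 CPM at day 0 (log2 fold change -0.63, SE 0.05, edgeR adjusted p = 4.19e-10). Taf15 rose to 114 ± 7.39 CPM, against 69.6 ± 4.87 CPM at day 0 (0.72, SE 0.08, edgeR adjusted p = 3.29e-08). After IL-13, 2 of the 20 fell and 1 rose at day 6, against 4.34% of all genes called lower and 2.21% higher, and 6 fell and 3 rose at day 0, against 24.2% and 23.7%. With total count scaling 6 fell and none rose at day 6, and 14 fell and 1 rose at day 0. Of all genes, that scaling called 1032 of 12352 lower and 53 higher at day 6. At day 0 it called 4523 of 12274 lower and 1682 higher. Ewsr1, an RNA-binding protein of paraspeckles, was one of the 2 that fell at day 6 with all libraries and the main scaling. It had 111 ± 3.99 CPM in IL-13 and 156 ± 18.3 CPM in untreated cells (-0.48, SE 0.08, edgeR adjusted p = 0.0103). With 1 library of day 6 left out, between 0 and 6 of the 20 fell, and 0 fell without IL-13 library 2.

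Other noncoding RNAs gave mixed directions. Of 12 tested nuclear noncoding RNAs, 2 fell and none rose after IL-13 at day 6, and of 11 tested at day 0, 3 fell and 2 rose, with median log2 fold changes of -0.22 and 0.05, the second of which was -0.07 with total count scaling. With 1 library left out, between 0 and 3 fell at day 6. None fell there without untreated library 1, untreated library 2 or IL-13 library 2, so both calls of day 6 were lost. At day 0, 3 fell and between 0 and 2 rose with 1 library left out. Ftx, an RNA of the X inactivation centre, had 3.04 ± 1.03 CPM in IL-13 and 6.30 ± 0.777 CPM in untreated cells of day 6 (log2 fold change -1.03, SE 0.21, edgeR adjusted p = 0.0214). It had 1.96 ± 0.597 CPM in IL-13 and 4.06 ± 1.07 CPM in untreated cells of day 0 (-1.07, SE 0.24, edgeR adjusted p = 0.00231). Snhg14, the host of small nucleolar RNAs in another imprinted domain, had 0.277 ± 0.0975 CPM in IL-13 and 0.986 ± 0.211 CPM in untreated cells of day 6 (-1.78, SE 0.33, edgeR adjusted p = 0.0166). Tug1 rose to 131 ± 14.98 CPM in untreated cells at day 6, against 98.5 ± 10.03 CPM at day 0 (0.41, SE 0.08, edgeR adjusted p = 0.000151). Of all genes, 4.34% were called lower and 2.21% higher after IL-13 at day 6, and 24.2% and 23.7% at day 0. Among mainly cytoplasmic noncoding RNAs, 1 of 15 tested fell and none rose after IL-13 at day 6, where between 0 and 3 fell with 1 library left out. At day 0, 4 of 17 fell and 5 rose. With total count scaling 5 of these 15 fell at day 6, and 7 of 17 fell and 3 rose at day 0. Of all genes, that scaling called 1032 of 12352 lower and 53 higher at day 6. At day 0 it called 4523 of 12274 lower and 1682 higher. H19, an imprinted microRNA host, had 10.2 ± 0.970 CPM in IL-13 and 2.14 ± 0.489 CPM in untreated cells of day 0 (2.24, SE 0.15, edgeR adjusted p = 1.37e-08). Gas5, a host of small nucleolar RNAs, fell to 96.9 ± 8.26 CPM in untreated cells at day 6, against 174 ± 8.48 CPM at day 0 (-0.85, SE 0.07, edgeR adjusted p = 2.31e-10).

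Genes next to Malat1 and Neat1 moved in both directions. Among 14 tested neighbours of Malat1 and Neat1 on chromosome 19, 8 fell and 3 rose between day 6 and day 0 in untreated cells, and 9 fell and 2 rose in IL-13 cells. Of all genes, 39.0% were called lower and 41.5% higher in untreated cells, and 40.3% and 40.6% in IL-13 cells. After IL-13, 1 rose and none fell at day 6, against 2.21% of all genes called higher and 4.34% lower. Of 13 tested at day 0, 6 rose and 1 fell, against 23.7% and 24.2%. With 1 library left out, between 3 and 7 rose at day 0. At day 6 none was called with 1 library left out, except that 2 rose and 1 fell without IL-13 library 1. With total count scaling 1 fell and none rose at day 6, and 2 rose and 2 fell at day 0. Of all genes, that scaling called 1032 of 12352 lower and 53 higher at day 6. At day 0 it called 4523 of 12274 lower and 1682 higher. Frmd8, beside Neat1, had 46.2 ± 7.51 CPM in IL-13 and 41.8 ± 4.52 CPM in untreated cells of day 6 (log2 fold change 0.16, SE 0.12, edgeR adjusted p = 0.410). It fell to 41.8 ± 4.52 CPM in untreated cells at day 6, against 59.6 ± 6.97 CPM at day 0 (-0.51, SE 0.10, edgeR adjusted p = 0.000164).

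In the Kcnq1 domain 9 of 17 listed genes were tested. Kcnq1 itself, a potassium channel that overlaps Kcnq1ot1 on the opposite strand over 121 exon bases, had 30 counts in all libraries together. Cdkn1c, a cell cycle inhibitor of the domain that is expressed from the maternal chromosome, had 1.86 ± 0.704 CPM at day 6 and 1.81 ± 0.349 CPM at day 0 in untreated cells (log2 fold change 0.06, SE 0.26, edgeR adjusted p = 0.852). It had 1.66 ± 0.244 CPM in IL-13 and 1.86 ± 0.704 CPM in untreated cells of day 6 (-0.16, SE 0.28, edgeR adjusted p = 0.748). Osbpl5, a lipid transfer protein gene of the domain, fell to 14.5 ± 0.877 CPM in untreated cells at day 6, against 48.4 ± 4.67 CPM at day 0 (-1.73, SE 0.08, edgeR adjusted p = 1.95e-14). Nap1l4, a histone chaperone gene, rose to 177 ± 6.22 CPM, against 86.3 ± 1.66 CPM at day 0 (1.03, SE 0.05, edgeR adjusted p = 4.78e-14). After IL-13 none of the 9 was called at day 6, and 6 rose and none fell at day 0, or 2 rose with total count scaling. Of all genes, 2.21% were called higher and 4.34% lower at day 6, and 23.7% and 24.2% at day 0. Total count scaling called 1682 of 12274 genes higher and 4523 lower at day 0. In the Dlk1-Dio3 domain 7 of 12 listed genes were tested, and 4 fell and 2 rose over differentiation in untreated cells. Among 8 tested partners and neighbours of Firre, 5 fell and 1 rose in untreated cells. Both shares called are near the 80.5% of all genes called there. Hs6st2, a heparan sulfate sulfotransferase gene next to Firre, fell to 2.80 ± 0.320 CPM in untreated cells at day 6, against 53.0 ± 1.67 CPM at day 0 (-4.24, SE 0.08, edgeR adjusted p = 1.30e-20), while Firre rose. Hnrnpu, the protein partner of Firre, had 504 ± 22.7 CPM in untreated cells of day 6 and 550 ± 28.5 CPM in those of day 0.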

How the data were processed

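The data were RNA-seq of immortalized mouse preadipocytes, 16 libraries in 4 groups of 4. Per the file headers, the authors deposited for each library raw counts per gene, RPKM and TPM values and a CPM column on an adjusted library size, treated as a score and not used. The genome build was mm10, per the submitters' processing notes; which aligner, counter and strand setting were used is not stated in the labels. Gene coordinates were GRCm38, 41297 of 41325 identifiers matched GENCODE M21, and promoter and microRNA sequences came from RefSeq on GRCm38.p6. Total counts ran from 15253031 to 18112087, so counting error weighs most on genes near 1 CPM. Every pair of libraries in a group differed by more than counting noise.

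edgeR 4.0.16 (R 4.3.3) fitted the counts by robust quasi-likelihood with TMM scaling and its default filter (minimum count 10, minimum total 15). Benjamini-Hochberg adjustment ran over all genes tested, and genes were called at an adjusted p under 0.05. The comparisons between the days used all 16 libraries and those between IL-13 and untreated cells the 8 libraries of a day. Levels are CPM on TMM library sizes of all 16, and the SE is the absolute log2 fold change over the root of the F statistic. The tests were tested on simulated data. Alternatives were other scalings, no filter, DESeq2 1.42.0, a non-robust fit, other sets of libraries, a replicate block and leaving out each library.

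The RNAs and the gene lists were chosen with earlier results of these data known, and IL-13 effects on the 8 RNAs carry no p. The p-values of named list genes are those of picked genes and do not test a list. The text names all 8 RNAs, up to 4 called genes of each list with the smallest p, the neighbours Dlk1, Dnm3, Kcnq1, Cdkn1c and Frmd8 (another neighbour is not reported here), and, for likeness, the 10 genes most like the mean of the RNAs and 3 for each; Hnrnpu was added after its values were seen. Ratios to Malat1 and the share of reads outside the gene counts were added after the data were seen, as were the list counts with each library left out. That share came from the RPKM values of genes with 1 annotated transcript and at least 200 counts, of which 94.9% to 96.4% in a library gave its median library size within 0.1%.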

Additional observations from a re-analysis of the deposited data

Results flagged for a closer look

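In IL-13 cells of day 6, library 4 had 4.28 Firre counts per 100 Malat1 counts, while the other 3 libraries had between 1.99 and 2.15. The gap between library 4 and its nearest neighbour took up 0.928 of the range of the group, above Dixon's 95% critical value for 4 samples. Of 44 groups of 4 values examined this was the only one so far apart, and since chance alone flags about 1 in 20 groups, a single one among 44 is no more than chance gives. Library 4 had 67 Firre counts, the highest of its group, and 1564 Malat1 counts, the second lowest. The cause was not tested.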

How the results depend on the processing

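Over 411 values recomputed under alternatives, 384 counted as unchanged, and none changed sign. For fold changes between the days unchanged meant the same direction and side of the threshold, and for counts of genes within 1.5 times. For fold changes between IL-13 and untreated cells it meant a shift smaller than the pooled SD of log2 CPM within groups. Coefficients of variation and the likeness list had limits of their own. The 150 alternatives to the log2 fold changes of the 5 RNAs between IL-13 and untreated cells all kept their sign. Between the days, 3 of the 5 RNAs were called in untreated cells when only the 8 libraries compared were fitted, where Malat1 had adjusted p = 0.0872 and Neat1 0.0505; the Malat1 call was also lost with total count scaling (0.0654) and with no filter on low counts (0.0572). Dnm3os in IL-13 cells passed in a non-robust fit (0.0293) and with the 8 libraries alone (0.0217). The count of genes called between IL-13 and untreated cells at day 6, 809, was 1405 with all 16 libraries in the fit and 1470 with DESeq2. Leaving out 1 library gave 60 to 2328 genes at day 6 and 4823 to 6593 at day 0, 10413 to 10658 between the days in IL-13 cells and 10434 to 10545 in untreated cells, and 3 to 4 and 4 to 5 of the 5 RNAs called; at day 6 the 60 came without untreated library 2 and the 2328 without IL-13 library 1. The cause was not tested.

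Libraries with the same number did not deviate together in every pair, with correlations between -0.08 and 0.21, so the numbers were not treated as a pairing. Library 3 did correlate best with its own number in every comparison, at 0.17 to 0.20. Libraries 1 and 4 did so in some comparisons and library 2 in none. The labels do not say whether the numbers pair libraries, and the cause was not tested. With a replicate block 2812 genes were called between IL-13 and untreated cells at day 6 and Dnm3os passed between the days in IL-13 cells (adjusted p = 0.00120); the block changed no other call of the 5 RNAs between the days. Of the 10 genes most like the RNAs, 9 stayed with another prior count. Depth limits Meg3, Rian and Mirg, which had at most 11 counts in a library, and Kcnq1ot1 and Firre in IL-13 cells of day 0.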
